A study of Drosophila melanogaster with 12 samples.

Results

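The insect cuticle is a layered shell of chitin and protein that the epidermis secretes anew at every moult, and its protein part comes from several large gene families. Here they were the genes with symbols beginning Cpr, Lcp, Pcp, Edg, Ccp84A, Acp65A or Twdl. They were taken from the array annotation where a probe set had 1 such symbol and no other, and each gene was read by its brightest probe set. This gave 105 of the 11981 genes with a probe set of their own: 66 Cpr, 24 Twdl, 7 Lcp, 3 Edg, 3 Ccp84A, 1 Pcp and 1 Acp65A gene. A further 6 probe sets carried several symbols of these families and were left out, so near-identical copies such as Lcp65Ag1 and Lcp65Ag2 were not read.

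Most of these genes encode proteins with the Rebers-Riddiford chitin-binding motif, and the Tweedle (Twdl) proteins form a separate family that helps to set body shape. Their transcripts are made in waves, and larvae, pupae and adults use different sets. In Drosophila the adult cuticle is begun in the pupa, and the fly goes on laying down inner cuticle and tanning the outer layers in the first days after eclosion, which is emergence from the pupal case. Acp65Aa is the member named for the adult cuticle, whereas Edg and Pcp genes are known from the prepupal and pupal cuticle.

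Whole flies were ground for RNA, which was hybridised to 12 arrays (Affymetrix Drosophila Genome 2.0), with 3 in each of 4 groups: tko25t males, wild-type males, tko25t virgin females and wild-type virgin females, all 1 day old. Every fly was first-generation offspring of a Canton S mother and an Oregon R father, and in mutants both parents carried tko25t, a point mutation of an X-linked gene for mitoribosomal protein S12 that had been outbred and kept over a balancer. Females were therefore homozygous and males hemizygous for it, and the array's own tko probe set cannot tell such an allele from the normal one. Each array held the pooled RNA of its own set of flies. The hours between eclosion and collection were not given in the sources used here, and the relation of any value below to them was not tested. The flies came from 3 independent crosses, which may be shared between the sexes, so p-values measure the spread between these arrays.

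Some arrays held transcripts of the other sex. The summed eggshell and yolk signal of wild-type male replicates 1 and 2 was 7.16% and 4.26% of the female level, against 0.294 to 0.582% on the other 4 male arrays. In tko25t female replicate 1 the summed accessory gland signal was 7.43% of the male level, against 0.472 to 3.20% on the other 5 female arrays. Wild-type female replicate 1 was the array at 3.20%, and wild-type female replicate 2 stood at 1.97%. Both were kept where the 3 arrays with most signal of the other sex are left out below. The middle 18S rRNA probe set read 3895 to 4075 in wild-type males and 194 to 357 in tko25t males. Correlations between arrays of 1 group ran from 0.952 to 0.987, and no arrays held the same values.

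Most of the family was dim at this age. In all, 38 members were bright enough to be tested in at least 1 sex, 35 in males and 32 in females, with 29 in both. The other 67 never passed a signal of 86.1 on any array, and 59 of them stayed under 50. The 3 Edg genes, first found as ecdysone-dependent transcripts of prepupal discs, were among these: Edg84A ran from 1.3 to 29.5, Edg78E from 1.2 to 29.2 and Edg91 from 7.0 to 39.0 over the 12 arrays. Pcp, the pupal cuticle protein gene, ran from 7.5 to 42.8. Of 7 Lcp genes, which are named for the larval cuticle, only Lcp65Aa was tested, and it read 76.4 to 185 over the 12 arrays. Of 24 Tweedle genes 6 were tested, with no signal above 148.9 on any array. The 25th percentile of all signals was 9.3 to 17.1 across arrays, and 9 members lay under it on every one of them.

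Many of the members with high signal moved up and down together from array to array within groups. Acp65Aa read 3369, 2641 and 4393 in tko25t males, in the order of replicates 1, 2 and 3, and 1337, 3025 and 4330 in wild-type males. In females it read 4504, 897 and 4382 in tko25t and 3190, 2523 and 5513 in wild type. The 4 groups overlapped throughout, and flies of 1 labelled genotype, sex and age differed up to 5.02-fold, which was in tko25t females.

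Cpr92F read 4473, 3791 and 4758 in tko25t males and 1650, 3513 and 4229 in wild-type males. The female values of Cpr92F were 3578, 778 and 3174 in tko25t and 1644, 1170 and 3819 in wild type. The same arrays were lowest for both genes in all 4 groups: replicate 2 of tko25t males, replicate 1 of wild-type males, replicate 2 of tko25t females and replicate 2 of wild-type females. Cpr62Bc followed with a wider swing, at 1017, 625 and 1767 in tko25t males and 331, 1433 and 1611 in wild-type males. In females Cpr62Bc read 800, 113 and 439 in tko25t and 231, 203 and 659 in wild type. Cpr92F and Cpr62Bc are known as chitin-binding cuticle proteins by sequence.

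**Figure D1:**
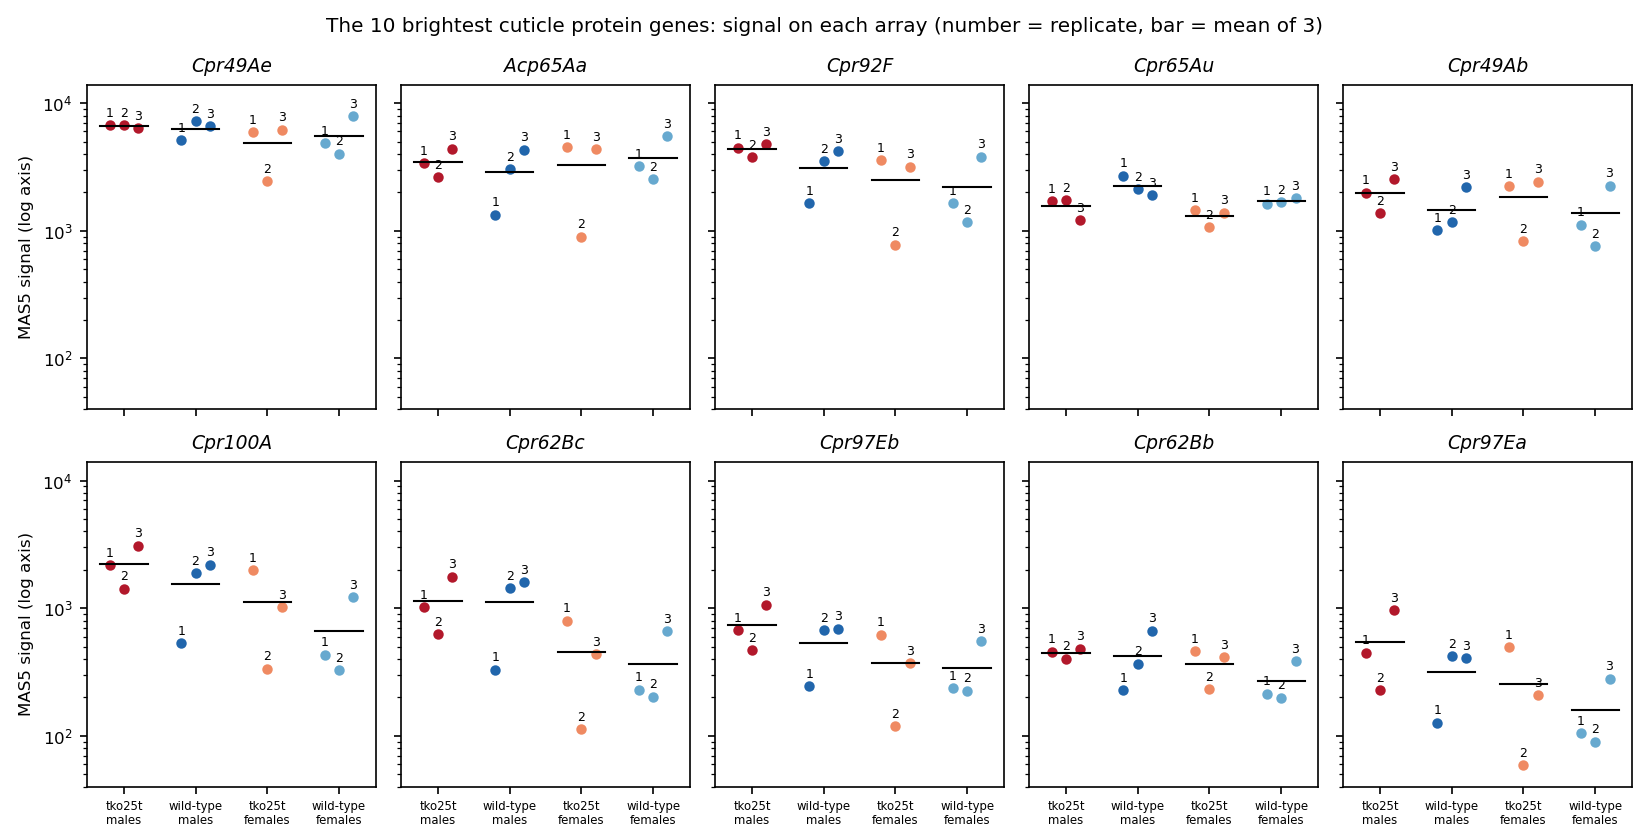
MAS5 signal (vertical axis, log scale) of the 10 cuticle protein genes with the highest mean signal, on each of 12 arrays, with replicate numbers beside the points and a bar at the mean of 3; signal does not compare amounts between genes. Replicate 2 of the tko25t females sits lowest in its group in all 10 panels and replicate 1 of the wild-type males in 9, the exception being Cpr65Au, for which that array is the highest.

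To describe this, each signal was turned into its log2 deviation from the mean of its own group, which removes sex and genotype, and the deviations of each gene were set against those of Acp65Aa over the 12 arrays. Pearson's r was above 0.8 for 13 of the 37 other members tested (35.1%), against 4.38% of the 11509 other probe sets tested. With ranks in place of values it was 13 of 37 and 3.79%, and after quantile normalization 12 of 37 and 3.47%. Without tko25t female replicate 2 and wild-type male replicate 1, the arrays farthest from the median for Acp65Aa, 10 members (27.0%) and 2.12% of the others remained above 0.8. Within 1 sex the deviations of 6 arrays are few, and the shares were 35.1% against 9.51% in males and 45.9% against 13.9% in females. These values describe 12 arrays whose signals share a scaling, and r was chosen here as the measure of likeness, so the 14 genes below are a description.

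The 13 were Cpr92F (r = 0.97), Cpr97Eb (0.95), Cpr62Bc (0.95), Cpr100A (0.94), Cpr47Ea (0.93), Cpr49Ab (0.91), Cpr49Ah (0.91), Cpr76Bd (0.90), Cpr49Ae (0.90), Cpr97Ea (0.90), Cpr62Bb (0.90), Cpr49Ag (0.85) and Cpr49Ac (0.81). None was a Tweedle, Lcp or Ccp84A gene. Their choice by r on these same deviations largely fixes that they share low and high arrays, so the counts by array only say which arrays these were. In tko25t females all 14 genes, Acp65Aa included, were lowest on replicate 2. In wild-type females all 14 were lowest on replicate 2 and highest on replicate 3. In wild-type males 13 were lowest on replicate 1 and 11 highest on replicate 3, and in tko25t males 12 were lowest on replicate 2 and 12 highest on replicate 3. The ratio of the highest to the lowest array in a group had a median over the 14 genes of 1.80 in tko25t males, 3.08 in wild-type males, 4.81 in tko25t females and 2.79 in wild-type females.

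**Figure D2:**
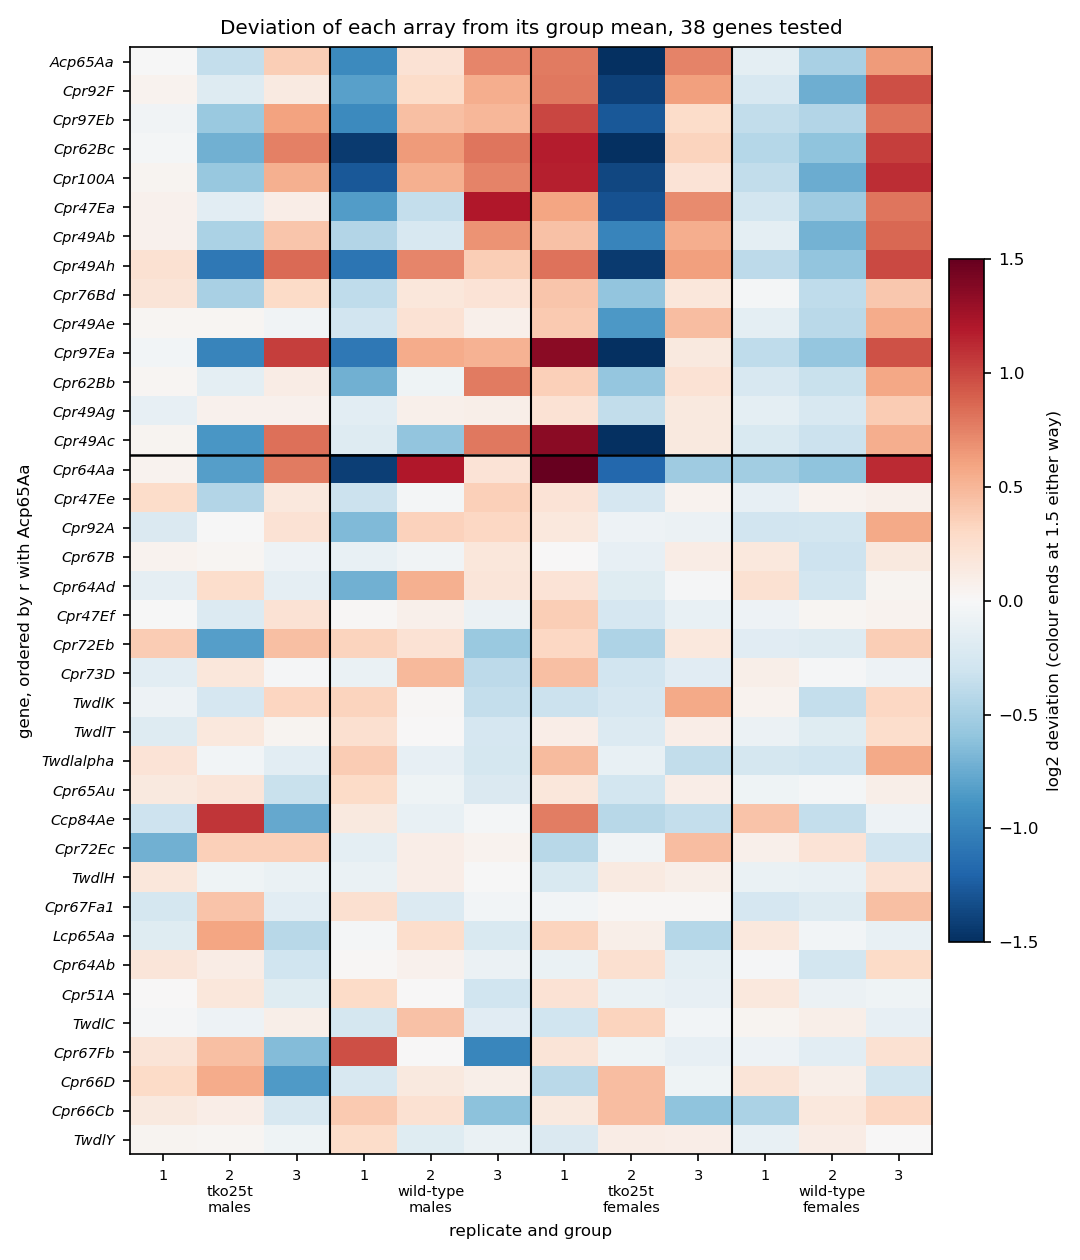
Log2 deviation of each array (columns, grouped by genotype and sex) from the mean of its group for the 38 cuticle protein genes tested (rows, ordered by r with Acp65Aa), red above and blue below the group mean. Above the black line the 14 genes with r above 0.8, Acp65Aa included, mostly share their low and high arrays, which their choice by r entails. Of the 24 below it, 14 were highest on tko25t female replicate 1 and 14 on wild-type female replicate 3, and 13 were lowest on tko25t male replicate 3.

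The SD within groups on the log2 scale had a median of 0.42 over all 38 members tested, against 0.21 over other probe sets, and of 0.85 over the 14 genes, which were chosen by r on these same deviations. Cpr49Ac read 103.9, 4.3 and 38.3 in tko25t females, where its low value is at the background. Cpr49Ag swung least of the 14, with an SD of 0.25. Cpr49Ae read 6708, 6702 and 6372 in tko25t males and 5102, 7241 and 6589 in wild-type males, a range far narrower than its female values of 5910, 2459 and 6198 in tko25t and 4836, 4031 and 7860 in wild type. The summed signal of all 105 members, which the brightest few dominate, ran from 9482 on tko25t female replicate 2 to 30138 on tko25t male replicate 3.

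Some clusters of neighbouring genes lay wholly in or out of the set, as far as they were tested. In the 49A cluster of 8 Cpr genes all 5 that were tested belonged to it (Cpr49Ab, Cpr49Ac, Cpr49Ae, Cpr49Ag and Cpr49Ah), as did both tested genes of the 62B cluster and both genes at 97E. In the 64A cluster none of the 3 genes tested reached r = 0.8, the highest being Cpr64Aa at 0.76. The 65A cluster holds 11 members in these files, most of them Lcp genes, and of its 3 tested genes only Acp65Aa itself belonged to the set, beside Cpr65Au and Lcp65Aa. This is a count of few genes per cluster, and no test was run on it.

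Several members did not follow Acp65Aa, and in males some ran the other way. Cpr65Au read 1709, 1744 and 1218 in tko25t males and 2704, 2120 and 1906 in wild-type males, so that its highest wild-type male array was the one where Acp65Aa was lowest. In females Cpr65Au read 1457, 1063 and 1386 in tko25t and 1629, 1668 and 1808 in wild type, in the order of Acp65Aa for tko25t replicates 1, 3 and 2. Its r with Acp65Aa was -0.88 over the 6 male and 0.97 over the 6 female arrays. Cpr67Fb read 82.9, 101.5 and 41.0 in tko25t males and 360, 180 and 85.3 in wild-type males, with r = -0.96 in males and 0.52 in females. For Cpr51A r was -0.97 in males and 0.30 in females. In all, 6 of 37 members (16.2%) had r below -0.8 in males, against 9.74% of other probe sets, and 2 (5.41%) in females, against 21.2%. Wild-type male replicates 1 and 2, which held female transcripts, are among the 6 male arrays behind the male values. Their part in them was not tested.

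The lists read beside the members moved with them to different degrees. Above r = 0.8 with Acp65Aa were 6 of 21 genes of chitin synthesis, modification and turnover: kkv, the epidermal chitin synthase, the chitin deacetylases serp, verm, Cda4 and Cda5, and the chitinase Cht7. So were 2 of 4 obstructor genes, Gasp and obst-B, which encode chitin-binding proteins of the trachea and epidermis, and 6 of 14 genes of tanning and pigmentation, among them y and e, which are needed for black melanin and for tan sclerotin. Gasp read 1601, 1045 and 2783 in tko25t males, 417, 1381 and 1362 in wild-type males, 1463, 255 and 781 in tko25t females and 384, 259 and 870 in wild-type females. Its low arrays were those of Acp65Aa in every group.

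The same held for tissues other than epidermis. Of 10 flight muscle genes 5 were above 0.8 (up, Mlc2, fln, TpnC4 and Tm2), and all 10 in females alone. Their summed signal in tko25t females was 45993, 22943 and 39688, and their median deviation on replicate 2 was -0.59, against -1.33 for the 14 cuticle genes. The larval fat-body genes Lsp2, Fbp1 and Fbp2, which encode a larval storage protein, a storage protein receptor and a further fat-body protein, were above 0.8 in 3 of 3 cases, and their summed signal in tko25t females was 5095, 284 and 1701. Without the 2 farthest arrays 3 of the 10 muscle genes, 1 of the 3 fat-body genes, 4 of the 21 chitin genes, 2 of the 4 obstructor genes and 3 of the 14 tanning genes were above 0.8. Over the 12 arrays 0 of 8 ecdysone, 0 of 2 eclosion hormone and 0 of 12 eggshell and yolk genes tested exceeded 0.8. Neither did any of the 11 testis or 13 accessory gland genes tested. The rest of the 19 ecdysone and 8 eclosion hormone genes listed were not tested and have no r. Below -0.8 were 3 of 11 testis and 1 of 13 accessory gland genes in males, against 9.74% of other probe sets. In females these were 1 of 11 and 0 of 13, against 21.2%. Whole flies were ground, so fewer cells of a type and less RNA per cell cannot be told apart, and the part of the muscle and fat-body signals in the cuticle values was not tested.

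**Figure D3:**
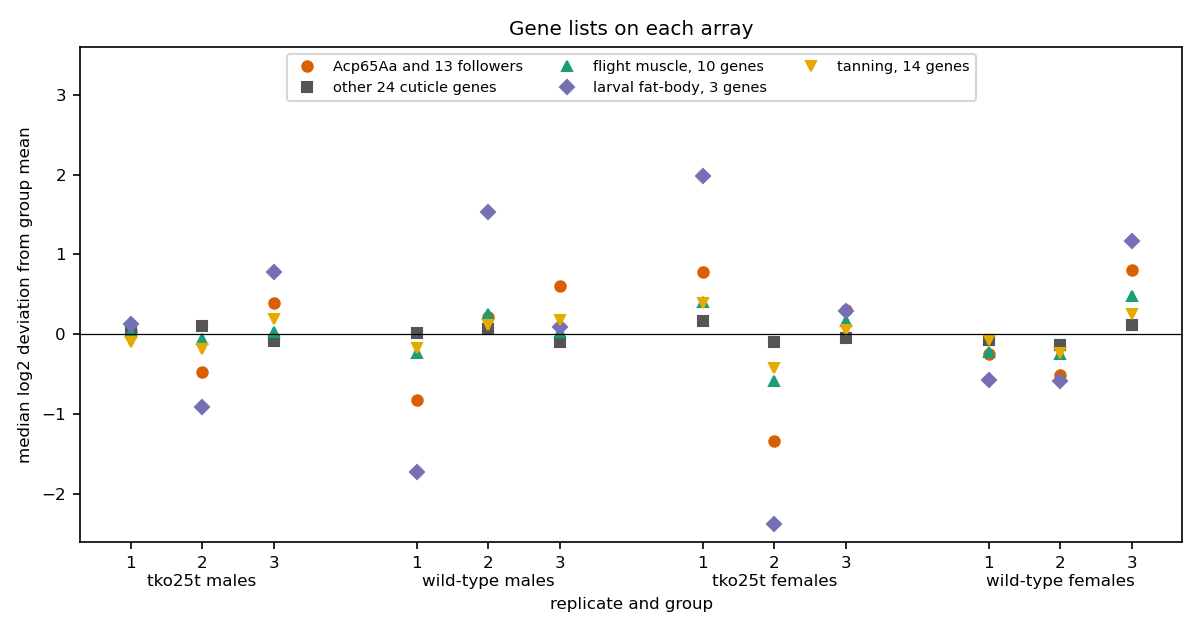
Median log2 deviation from the group mean (vertical axis) of the 14 cuticle genes, the 24 other cuticle genes tested and 3 further lists on each of 12 arrays (horizontal axis). The median of the 14 genes was lowest on tko25t female replicate 2 at -1.33, and that of the 24 others lay between -0.13 and 0.17 on all 12 arrays. Single genes of the 24 moved further, such as Cpr64Aa, from -1.41 to 1.71.

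The part of transcripts of the other sex and of 18S rRNA in this swing was not tested, and their values are given here beside it. In wild-type male replicates 1, 2 and 3 the summed eggshell and yolk signal was 7.16%, 4.26% and 0.572% of the female level. The median deviations of the 14 genes on these arrays were -0.83, 0.22 and 0.61. Over the 6 male arrays 4 of 12 eggshell and yolk genes had r below -0.8 with Acp65Aa, against 9.74% of other probe sets. Over the 6 female arrays 0 of 12 did, against 21.2%. Among tko25t females, replicate 1 had most accessory gland signal and a deviation of 0.79, whereas replicate 2, the lowest for the cuticle genes at -1.33, had 1.01% of the male accessory gland level. The 18S rRNA signal of the middle probe set in tko25t females was 190, 94.7 and 94.7.

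Genotype was compared within each sex by limma, with adjustment by the Benjamini-Hochberg method over all probe sets tested in that sex. The middle ribosomal RNA probe set split the male arrays by genotype, at 3895 to 4075 in wild type and 194 to 357 in tko25t. On these arrays this signal cannot be separated from genotype, and its part in the male values here and below was not tested. In males 1 member was higher and 1 lower in tko25t, 2 of 35 or 5.71%, where 11.1% of all probe sets tested passed, 5.51% higher and 5.63% lower. At an unadjusted p under 0.05 there were 7 (20.0%), against 28.1% of all. The median log2 change of the 35 was 0.08, against -0.01 over all. SAM, the test of the study's methods, as rerun here on the brightest probe sets, called 0 members in males, where it called 3.39% of all probe sets. The study's own run called more probe sets in males. The paper reports constituents of the cuticle among the genes higher in tko25t, and its list was not set against these members here.

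The higher gene was Cpr72Ec, a cuticle protein gene of the 72E cluster known by sequence. It read 89.4, 201.4 and 201.6 in tko25t males and 44.2, 54.7 and 52.3 in wild-type males, and the groups did not overlap. The ratio of means was 3.26, and the log2 change was 1.43 (SE 0.27, adjusted p = 0.0120). In females Cpr72Ec read 76.0, 101.6 and 150.3 in tko25t and 56.1, 62.1 and 40.9 in wild type, again without overlap, but its log2 change of 0.87 (SE 0.24) did not pass the test (adjusted p = 0.135). The difference between the sexes in its change was 0.55 (SE 0.41, adjusted p = 0.607).

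The lower gene was Cpr51A. It read 122, 138 and 106 in tko25t males and 305, 249 and 199 in wild-type males, without overlap, a ratio of 0.485. Its log2 change was -0.96 (SE 0.16, adjusted p = 0.00828). In females Cpr51A read 70.7, 54.7 and 53.5 in tko25t and 92.5, 76.4 and 77.8 in wild type, with a log2 change of -0.40 (SE 0.16, adjusted p = 0.289), and the difference between the sexes was -0.56 (SE 0.24, adjusted p = 0.353). Neither gene was among the 14.

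The male calls and changes depended on the arrays used. Without tko25t male replicate 3 Cpr72Ec had an adjusted p of 0.0526 and Cpr51A kept its call at 0.0329. Leaving out the 3 arrays with most signal of the other sex, wild-type male replicates 1 and 2 among them, left 1 wild-type male array. That array gives no spread of its own. In this fit the log2 change was 1.38 for Cpr72Ec, -0.67 for Cpr51A and -1.82 for Cpr47Ea. With all arrays Cpr47Ea read 94.7, 79.7 and 97.7 in tko25t males and 76.1, 111 and 348 in wild-type males, so its groups overlapped.

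Among the 14 genes that swung together none passed in males. The log2 changes of Acp65Aa (0.38, SE 0.36, adjusted p = 0.526) and Cpr92F (0.57, SE 0.29, adjusted p = 0.234) were within the spread of the arrays. Of the 14, 13 had a log2 change above 0, with a median of 0.42, against 48.0% above 0 and a median of -0.01 over all probe sets tested. These genes were chosen for moving together and mostly share their low wild-type array, replicate 1, so they are not separate results. The nearest to a call was Cpr49Ac, at 78.5, 36.3 and 144 in tko25t and 13.2, 7.2 and 37.6 in wild-type males, with a log2 change of 1.63 (SE 0.46, adjusted p = 0.0509). Wild-type replicates 1 and 2 lay under the 25th percentile of their arrays, 17.1 and 16.8, so this change is measured against values partly at the background. The groups overlapped, the lowest mutant array lying just below the highest wild-type one. Cpr49Ac passed without tko25t male replicate 2 (adjusted p = 0.0299) and without wild-type male replicate 3 (adjusted p = 0.0340). Without that last array Cpr67Fb also passed as lower (-1.69, adjusted p = 0.0303), and without wild-type male replicate 1 Cpr92A did (-0.79, adjusted p = 0.0211).

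In females 0 of 32 members passed, where 2.05% of all probe sets did, 1.43% higher and 0.614% lower. At an unadjusted p under 0.05 there were 4 (12.5%), against 14.4% of all, namely Cpr72Ec, Cpr65Au, Cpr51A and Cpr47Ee, and the lowest adjusted p was 0.135. The rerun of SAM called 0 members in females, where it called 1.74% of all probe sets, again fewer than the study's own run. The median log2 change was -0.07, against -0.04 over all. Standard errors of the members were wide, with a median of 0.25 in females and 0.26 in males against 0.15 over all probe sets in each sex, and for Acp65Aa in females the log2 change was -0.44 with an SE of 0.60.

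**Figure D4:**
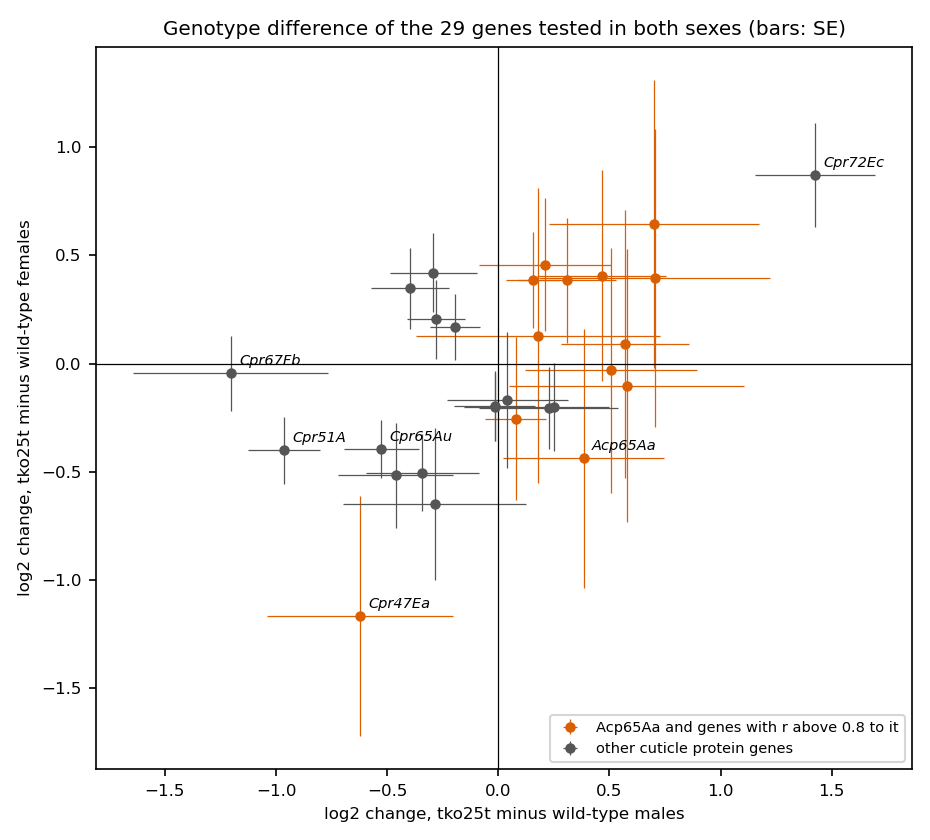
Log2 change between tko25t and wild type in males (horizontal axis) and in females (vertical axis) of the 29 cuticle protein genes tested in both sexes, with SE bars, the 14 genes that follow Acp65Aa in orange where tested. Cpr72Ec lies highest in both sexes, at 1.43 and 0.87, and Cpr51A low in both, at -0.96 and -0.40.

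The difference between the sexes in the genotype effect was tested for 38 members, and 0 passed, where 0.104% of all probe sets did, 0.0693% with a higher change in males and 0.0346% with a lower one. At an unadjusted p under 0.05 there were 4 members, Cpr64Ab, Cpr66D, TwdlT and Cpr51A, against 12.8% of all probe sets, and the lowest adjusted p was 0.267. SAM was not run on this difference.

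Genotype calls among the lists beside the members can be read against the 11.1% of all probe sets that passed in males. In chitin synthesis, modification and turnover 1 of 21 genes was higher (Idgf5, a chitinase-like growth factor) and in tanning 2 of 14 (t and yellow-f). None of the 4 obstructor or 10 flight muscle genes tested passed in either sex. Of the ecdysone genes 1 of 6 was higher in tko25t males (Eip93F, an ecdysone-induced factor) and 1 of 8 in tko25t females (Kr-h1). Of 2 eclosion hormone genes tested in males 1 was lower in tko25t, namely ETH, the ecdysis triggering hormone gene. ETH read 21.1, 1.6 and 28.7 in tko25t males and 75.3, 69.4 and 71.1 in wild-type males. Its value on tko25t replicate 2 lay under the 25th percentile of that array, 14.2. Of the lists of the sexes' own organs, 5 of 10 eggshell and yolk genes and 5 of 10 testis genes were lower in tko25t males, and of 13 accessory gland genes 1 was higher and 2 lower. Wild-type male replicates 1 and 2 are the arrays with high eggshell and yolk signal, and their part in these calls was not tested. The larval fat-body genes were higher in tko25t males in 3 of 3 cases, Lsp2 by 1.83, Fbp1 by 4.37 and Fbp2 by 4.35 on the log2 scale (adjusted p = 0.00216, 0.00766 and 0.0105). In females the log2 changes of Lsp2, Fbp1 and Fbp2 were 1.09 (SE 0.82), 3.64 (SE 1.04) and 3.39 (SE 1.08), and 0 of 3 passed. None of the 3 passed for the difference between the sexes either. These 3 genes followed Acp65Aa within groups, and the change of Acp65Aa itself in males was 0.38 (SE 0.36) and did not pass. How their changes relate to that of Acp65Aa was not tested.

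Between males and virgin females, over both genotypes, 13 members were higher in males and 3 lower, 16 of 38 or 42.1%. Among all probe sets 78.6% passed, 32.4% higher and 46.1% lower. A member could enter this comparison through 1 sex alone: Twdlalpha, TwdlK, Cpr73D and Cpr67Fa1 entered through males, where they are high, and TwdlC through females, where it is high. Of the 29 members bright enough in both sexes 9 were higher and 2 lower in males (37.9%), against 73.9% of all probe sets tested in both. At an unadjusted p under 0.05 there were 18 members (47.4%), against 79.9% of all. The median log2 change of the 38 was 0.35, against -0.17 over all probe sets. In these comparisons whole bodies differ in their organs, the ovary of females included, and signals are relative to the whole RNA.

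Twdlalpha was bright enough to be tested in males only, its mean signal in females being 12.7 where 34.9 was needed. It thus entered this comparison only through the sex where it is high, so its change and p-value are given as a description. Its male signals ran from 66.7 through a median of 90.1 to 149 and its female signals from 4.8 through 9.45 to 26.6, a gap between the sexes on all 12 arrays, with a log2 change of 2.15 (SE 0.20, adjusted p = 4.64e-07). Most of its female signals lay at or under the background, so the size of this change is set in part by the offset. Cpr47Ef ran from 145.8 to 220.5 in males (median 197) and from 72.0 to 120.0 in females (median 79.3), with a log2 change of 1.08 (SE 0.12, adjusted p = 2.05e-06). For Cpr51A the male range was 106 to 305 (median 168) and the female range 53.5 to 92.5 (median 73.6), a log2 change of 1.19 (SE 0.12, adjusted p = 1.01e-06). Cpr49Ag and TwdlC also had sexes that did not overlap, Cpr49Ag at 142 to 189 in males and 68.8 to 133 in females, and TwdlC, with the higher sex reversed, at 19.6 to 39.8 in males and 46.6 to 78.4 in females. Their log2 changes were 0.74 and -0.85, and TwdlC entered through females alone, where it is high.

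The other calls came from overlapping ranges. Cpr62Bc (1.53, SE 0.51), Cpr100A (1.23, SE 0.47), Cpr67Fb (1.02, SE 0.28), TwdlK (0.97, SE 0.20), Cpr73D (0.68), Cpr76Bd (0.67), Cpr92A (0.56), Cpr67Fa1 (0.40) and Cpr65Au (0.32) were higher in males. Cpr47Ea (-1.19, SE 0.40) and Cpr67B (-0.35, SE 0.10) were lower. Among the higher genes TwdlK, Cpr73D and Cpr67Fa1 entered through males alone, where they are high. Cpr100A passed by a small margin (adjusted p = 0.0308), and 5 of the 14 genes that swung together were among the 16 calls: Cpr62Bc, Cpr100A, Cpr76Bd, Cpr49Ag and Cpr47Ea. The first 4 were higher and the last lower in males. Over all 14 the log2 change was above 0 in 11, with a median of 0.71, against 43.2% above 0 over all probe sets. For Acp65Aa the log2 change was -0.03 (SE 0.40, adjusted p = 0.942). Which array was left out moved the count of higher members between 9, without wild-type female replicate 1 or 2, and 18, without wild-type female replicate 3. Leaving out the 3 arrays with most signal of the other sex left 1 wild-type male array, so no count is given for that fit.

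**Figure D5:**
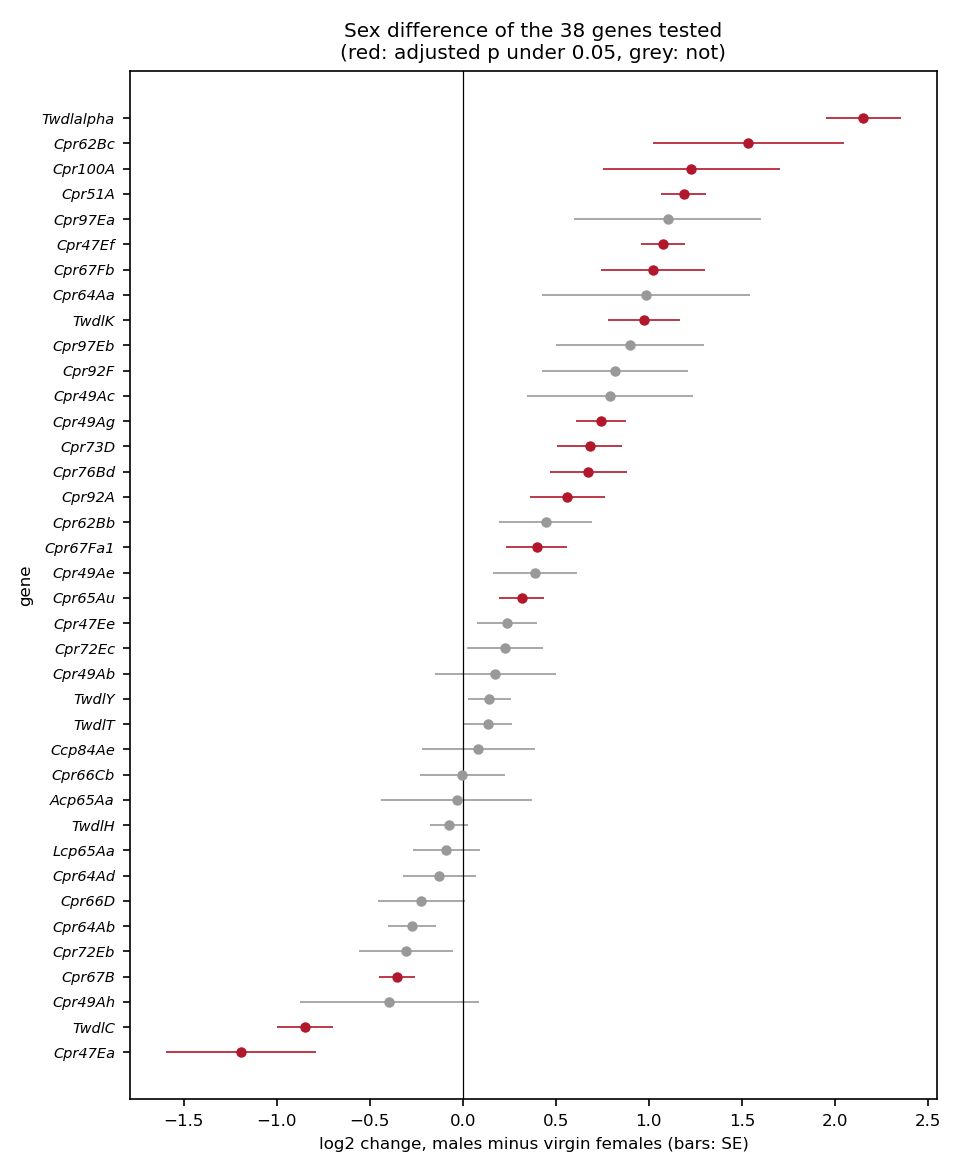
Log2 change between males and virgin females (horizontal axis, SE bars) of the 38 cuticle protein genes tested (rows), in red where the adjusted p was under 0.05. Twdlalpha lies highest at 2.15, Cpr47Ea lowest at -1.19 and Acp65Aa at -0.03. Of the genes in red, Twdlalpha, TwdlK, Cpr73D and Cpr67Fa1 entered through males alone and TwdlC through females alone, the sex where each is high.

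Among the dim members that the filter left out, 2 had no overlap between the sexes, a fact noticed after their values were seen. How many of all probe sets have sexes that do not overlap was not counted, and 78.6% of those tested passed between the sexes. No trait of these genes, or of the tested members without overlap, is therefore read from it. Cpr56F ran from 27.6 to 55.2 in males and from 1.8 to 3.0 in females, and Cpr35B from 2.9 to 14.7 in males and from 30.5 to 36.2 in females. In the fit with no filter their log2 changes were 1.85 (SE 0.14, adjusted p = 7.75e-08) and -1.22 (SE 0.13, adjusted p = 3.23e-06). The low side of each lies at the background, where the offset added before log2 narrows the change.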

How the data were processed

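Total RNA of whole flies was hybridised to 12 one-colour arrays. The authors made the deposited intensity values, MAS5 signals on a linear scale, with the GCOS software and scaled each array before deposit. No further scaling was applied, the median over arrays of the 25th percentile of signal, 11.6, was added, and log2 was taken. Since detection p-values were not used here, as many probe sets were tested as the study's filter kept, namely the brightest by mean over the 6 arrays of a sex: 53.3% of 18952 probe sets, of which 183 are controls, in males (mean signal of at least 42.9) and 51.6% in females (at least 34.9). For the sex comparisons the union, 11547, was used. Microarrays give no read depth, and the 3 arrays per group limit the precision.

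Genotypes were compared in each sex by limma 3.58.1 (R 4.3.3) with a variance trend. The sexes and the difference in genotype effect came from a fit of all 12 arrays. A call needs a Benjamini-Hochberg adjusted p under 0.05. A fold divides mean linear signals. The fit was tested on simulated data. Descriptions and plots used Python 3.11.15, pandas 2.3.3, numpy 2.4.6 and matplotlib 3.10.9. All 105 members were found in the RefSeq table of assembly Release 6 plus ISO1 MT by Entrez number under the same symbol, and gene order came from it.

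Named genes are the called members changed the same way in every pairing of mutant with wild-type arrays, 9 in all, the 10 with the highest mean signal, every Edg, Pcp and Acp65A gene, and the 5 largest changes in either direction between the sexes. Others named were chosen after their values were seen. Lists read beside the members cover chitin, obstructor, tanning, ecdysone, eclosion hormone, flight muscle, larval fat-body, eggshell and yolk, testis and accessory gland genes. Members, lists and tests were chosen with earlier results of these data known. Alternatives were a smaller and a larger offset, no filter, quantile normalization, the replicate number as a block, SAM (s0 = 20, fold above 1.5, false discovery rate under 2.5%), 1 fit of all arrays, the mean over a gene's probe sets, and leaving out arrays. Leaving out the 3 arrays with most signal of the other sex was added after the data were seen. No sequences were used.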

Additional observations from a re-analysis of the deposited data

How the results depend on the processing

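Counts of cuticle protein genes passing are given as higher and lower in tko25t males, 1 and 1, unless stated. The counts were the same with a smaller or a larger offset, a fit of all arrays or the mean over probe sets. No filter gave 2 lower (Cpr11B added) and quantile normalization 2 lower (Cpr65Au added). SAM as rerun here gave 0 and 0. Leaving out 1 array gave 0 to 2 higher and 1 to 2 lower. No count is given without the 3 arrays with most signal of the other sex, since 1 wild-type male array was left. Whether the replicate numbers pair the arrays was not settled here. Deviations of same-numbered mutant and wild-type arrays correlated at 0.02, -0.16 and 0.13 in males and at -0.05, 0.46 and 0.45 in females. Those of same-numbered male and female arrays correlated at 0.03, 0.20 and 0.06 in tko25t and at 0.22, -0.12 and 0.22 in wild type. Arrays with different numbers were not correlated for contrast. With the replicate block 2 were higher (Cpr72Ec and Cpr49Ac) and 3 lower (Cpr51A, Cpr65Au and Cpr67Fb). In females and for the difference between the sexes 0 passed under every setting tried. Between males and females, 13 higher and 3 lower, the replicate block gave 16 and 3 and no filter gave 19 and 7 of 105 tested. For this comparison leaving out 1 array gave 9 to 18 higher and 3 to 4 lower. Gene by gene, 916 alternative values kept their side of the threshold, 29 gained and 39 lost a call, and no called value changed direction. Cpr67Fa1, Cpr65Au, Cpr92A and Cpr100A lost their sex call most often, and the cause was not tested. Dim probe sets limit what 67 members can show, since their signals lie near the background.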

Other observations

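Single genes of other families followed Acp65Aa as closely as the closest cuticle protein genes did, and they were picked for that after all values were seen. Taken whole, 4.38% of the other probe sets tested had r above 0.8, against 35.1% of the other cuticle protein genes. Of 9444 genes that are not cuticle protein genes, the 10 with the highest r over the 12 arrays were Lipt1 (0.97), CG3597 (0.97), CG1136 (0.97), fat-spondin (0.96), yellow-d2 (0.96), CG30083 (0.96), Cht7 (0.96), SPARC (0.96), miple1 (0.96) and CG11699 (0.95). Their lowest r without the 2 arrays farthest from the median was 0.89. Cht7, a chitinase, read 190, 142 and 334 in tko25t males and 97.9, 238 and 275 in wild-type males. In females Cht7 read 185, 40.9 and 134 in tko25t and 95.3, 75.8 and 200.1 in wild type, with the same low array in each group as Acp65Aa. SPARC, a collagen-binding protein of the basement membrane, had a much narrower swing, at 2369, 1458 and 2064 in tko25t females.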
